A study of Homo sapiens with 2 samples.

Results

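The MAPK output and feedback genes are 10 genes, DUSP4, DUSP5, DUSP6, SPRY2, SPRY4, SPRED1, SPRED2, ETV4, ETV5 and PHLDA1, whose transcripts are switched on by the RAS-RAF-MEK-ERK cascade. They were taken by name, as every probe set that the platform annotation gives to 1 of these symbols alone, which gave 28 of 54675 probe sets and 10 of 19735 genes. The samples were HARA-B4, a highly bone-metastatic subline of HARA, and HARA itself, an established line from a human squamous cell carcinoma of the lung. Both lines, for which no treatment is labelled, were grown in culture in the same serum-containing medium with penicillin and streptomycin, and total RNA of each was hybridised to 1 Affymetrix array, so every value below is from 1 array per line (n = 1 each) with no estimate of biological spread and no p-value. The sources used here give no other allele, agent or time for either line, and HARA-B4 stands for 1 subline only.

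ERK is the last kinase of a relay that carries signals of growth factor receptors to the nucleus, and epithelial cells use it to control division, movement and differentiation. Active ERK induces genes that act back on the relay: DUSP phosphatases remove the activating phosphates from MAP kinases, and Sprouty and SPRED proteins act above RAF. Because their transcripts follow ERK activity, such genes together with the ETS factors ETV4 and ETV5 and with PHLDA1 are widely used as a readout of the pathway in tumour cells. Capicua is a repressor that keeps several of them off until ERK signalling relieves it.

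The deposited values are linear signals, and differences are given on the log2 scale as HARA-B4 minus HARA. The trimmed mean signal was 116.0 in HARA-B4 and 115.6 in HARA. A signal of 27.2 was taken as the background level, the 95th percentile of 163 probe sets for odour, taste and vomeronasal receptors. Squamous markers were above it in both lines (6 of 6 measured), while fibroblast markers were not (0 of 5), and of the blood and endothelial markers HBB (33.9 in HARA-B4 and 35.7 in HARA) and PECAM1 (50.4 in HARA-B4 and 50.6 in HARA) were. Of 5 lung gland and alveolar markers, 2 passed in HARA-B4 and 3 in HARA, with a highest signal of 56.1 in HARA-B4 and 58.6 in HARA. Each gene took its brightest probe set as its value, and a difference of at least 2-fold was called. Probe sets of the same gene give a technical spread, which over 4829 genes was an SD of 0.30 on the log2 scale.

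Promoter windows of RefSeq (GRCh38.p14), 250 bases before to 50 bases after a start, were searched for 6 members, DUSP6, SPRY2, SPRY4, SPRED1, SPRED2 and PHLDA1. No window was searched for the other members, DUSP4, DUSP5, ETV4 and ETV5, so nothing can be said here of the letters in their promoters. The windows of DUSP6 and PHLDA1 are shown because both genes were lower by over 2-fold in HARA-B4, and that of SPRED2 because it held AP-1 letters. Each is written 5′ to 3′ in the direction of transcription. Capitals mark the letters found: the capicua octamers in DUSP6 and the matches to TGANTCA, searched for AP-1, in SPRED2.
DUSP6, chr12:89352452-89352751, minus strand: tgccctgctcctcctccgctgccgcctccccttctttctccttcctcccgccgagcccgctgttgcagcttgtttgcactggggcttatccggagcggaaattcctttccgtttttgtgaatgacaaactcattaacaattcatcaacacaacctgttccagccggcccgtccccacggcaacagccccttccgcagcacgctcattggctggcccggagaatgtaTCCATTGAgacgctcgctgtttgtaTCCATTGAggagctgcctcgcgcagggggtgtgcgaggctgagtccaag
PHLDA1, chr12:76031727-76032026, minus strand: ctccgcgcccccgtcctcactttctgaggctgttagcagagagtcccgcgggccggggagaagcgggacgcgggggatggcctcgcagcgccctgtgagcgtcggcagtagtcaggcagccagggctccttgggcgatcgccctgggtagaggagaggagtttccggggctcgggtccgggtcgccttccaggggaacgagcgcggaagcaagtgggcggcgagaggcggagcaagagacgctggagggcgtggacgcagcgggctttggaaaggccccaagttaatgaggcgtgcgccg
SPRED2, chr2:65366729-65367028, minus strand: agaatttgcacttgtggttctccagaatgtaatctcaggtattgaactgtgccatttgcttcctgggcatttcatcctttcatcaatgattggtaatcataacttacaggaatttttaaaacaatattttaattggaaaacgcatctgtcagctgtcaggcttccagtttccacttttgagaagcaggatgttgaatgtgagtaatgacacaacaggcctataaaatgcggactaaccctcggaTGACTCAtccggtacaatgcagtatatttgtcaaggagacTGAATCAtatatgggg

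The motifs searched on both strands were CCGGAAG for ETS factors, TGAATGAA, TGAATGGA, TCAATGAA and TCAATGGA for capicua, TGANTCA for AP-1 and TGACGTCA for the cyclic AMP response element. In the DUSP6 window the capicua octamer TCAATGGA was found at 2 places, which the printed strand reads as TCCATTGA, 1 beginning 24 bases before the start and the other at base 2 of the transcript. Capicua octamers were found in 3.77% of all 35116 windows. The printed SPRED2 window held 2 matches to TGANTCA, in which N is any base. TGACTCA began 6 bases before the start and TGAATCA at base 35. Matches to TGANTCA were found in 7.71% of all windows. No ETS or cyclic AMP response letters were found in the 9 windows of the 6 genes, against 10.3% and 1.85% of all windows. SPRY2 has 3 windows. SPRED2 has a further one, chr2:65432550-65432849, with 60% GC against 39.3% in the printed one. None of the SPRY2 windows, this further SPRED2 window or those of SPRY4, SPRED1 and PHLDA1 held any of the letters searched. These matches describe the letters only.

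In HARA-B4 all 10 members had a lower signal than in HARA, and 4 of them, DUSP4, DUSP6, ETV5 and PHLDA1, were lower by at least 2-fold. None was higher by 2-fold (0 of 10). Among 11486 genes above background on at least 1 array, 4.21% were lower by 2-fold and 3.62% higher. Any negative difference was found in 47.8% of the 10202 genes above background on both arrays, which include all 10 members. The members' median difference was -0.79, a signal in HARA-B4 of 57.9% of that in HARA, beside a median of 0.02 for all genes, whose quartiles lay at -0.27 and 0.28. At 1.5-fold, 7 members were lower, against 10.2% of all genes above background on both arrays. In RNA from a whole culture, a fall in every cell and a loss from some of the cells cannot be told apart.

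**Figure D1:**
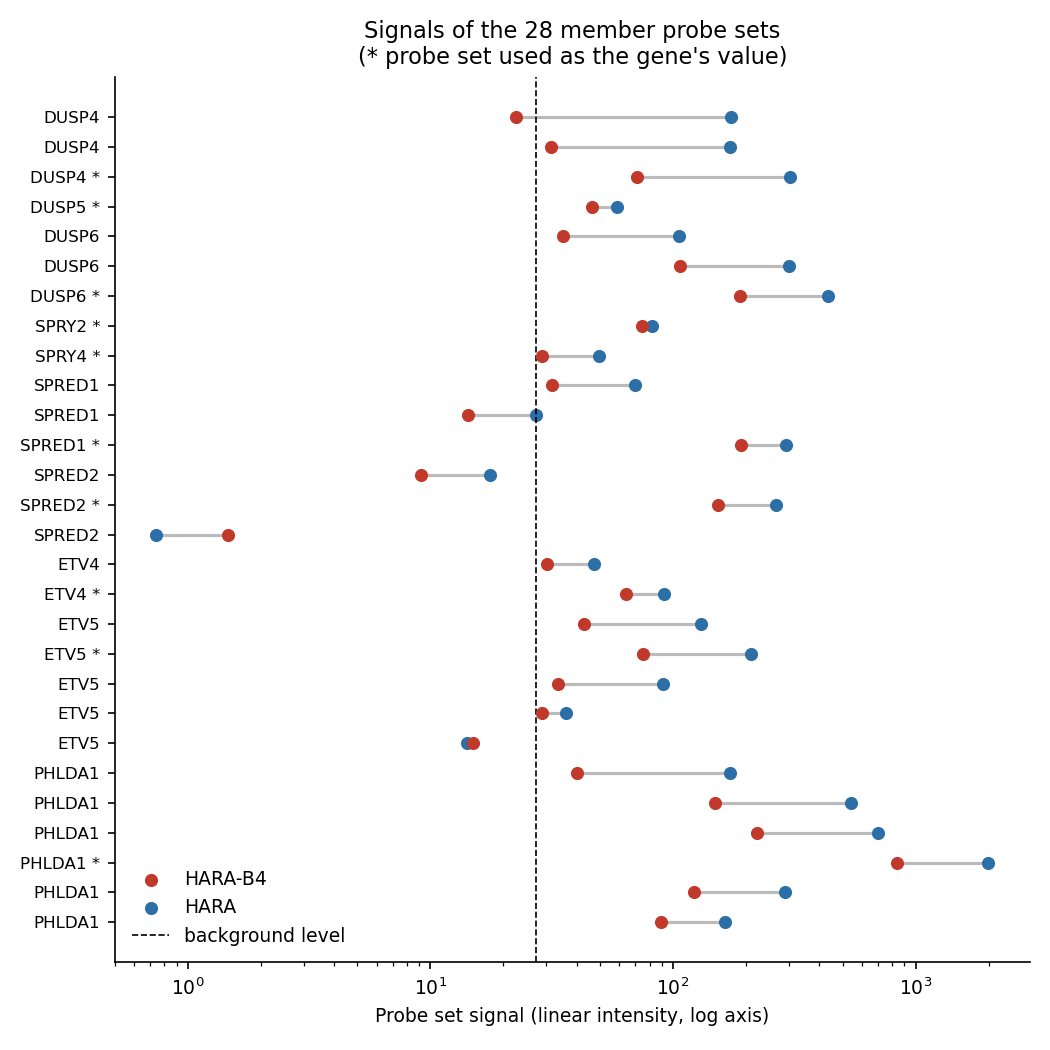
Signals of the 28 member probe sets (log axis, linear intensity), 1 point per array, with HARA-B4 in red and HARA in blue. The dashed line is the background level of 27.2 and an asterisk marks the probe set used as the gene's value. For the 23 probe sets measured above that line in both lines, the HARA-B4 point lies left of the HARA point.

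Above background, the probe sets of these genes went the same way. Of the 28, 23 were above background on both arrays, 2 in HARA only and 3 on neither. All 23 had a negative difference, from -2.46 to -0.14 with a median of -1.24. The share of negative differences over all probe sets was not counted, and over genes above background on both arrays it was 47.8%. Of the 23, 14 were lower by at least 2-fold, against 3.53% of all 18210 probe sets above background on both arrays that have 1 symbol. Probe sets of the same gene share its RNA and its array, so they are repeat measurements and not replicates. The genes differ in how many probe sets they have, from 1 for DUSP5, SPRY2 and SPRY4 to 6 for PHLDA1, so a count over probe sets weights PHLDA1 and ETV5 most.

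The dual-specificity phosphatases gave both the largest difference and one of the smaller ones. DUSP4, a nuclear phosphatase that acts on ERK and on other MAP kinases, had a signal of 71.3 in HARA-B4 and 303 in HARA on its brightest probe set, 204015_s_at (log2 difference -2.09, 23.5% of the HARA signal). Its second probe set read 31.4 in HARA-B4 and 172 in HARA (-2.46). The last DUSP4 probe set was below background in HARA-B4, at 22.5, against 174 in HARA, which makes it at least 6.41-fold lower. All DUSP4 probe sets therefore showed a low HARA-B4 signal, at or below 2.63 times the background level, and only 0.314% of genes above background on both arrays had a lower difference (rank 33 of 10202).

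DUSP6 is a cytoplasmic phosphatase that is selective for ERK. Its brightest probe set, 208892_s_at, read 188 in HARA-B4 and 435 in HARA (-1.21), while the others read 107 in HARA-B4 against 301 in HARA (-1.49) and 35.3 in HARA-B4 against 106 in HARA (-1.58). All 3 probe sets were lower by over 2-fold, with an SD of 0.19 among their differences, and 2.23% of genes had a lower difference than the brightest. Its promoter window is the one above with the capicua octamers. DUSP5, a nuclear phosphatase selective for ERK, was close to background in both lines, at 46.1 in HARA-B4 and 58.6 in HARA. Its difference of -0.35 rests on 1 probe set, is close to the technical SD of 0.30, and 20.2% of all genes lay lower.

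Sprouty and SPRED proteins, which hold back the signal between receptor and RAF, were lower by less than 2-fold in each case (0 of 4 called, median -0.70). SPRED2 read 153 in HARA-B4 and 265 in HARA (-0.79). Its other 2 probe sets were below background in both lines. SPRED1, a partner of the RAS GTPase-activating protein neurofibromin, read 190 in HARA-B4 and 292 in HARA (-0.62). A second SPRED1 probe set read 31.6 in HARA-B4 and 69.9 in HARA (-1.15) and so passed 2-fold. The last SPRED1 probe set read 14.3 in HARA-B4 and 27.3 in HARA, where it barely passed the background level.

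The Sprouty genes rested on fewer probe sets. SPRY4 had 1 probe set, at 28.8 in HARA-B4 and 49.5 in HARA (-0.78), and its HARA-B4 signal was only 1.06 times the background level, which leaves little room for a wider measured difference. SPRY2 also had 1, at 74.4 in HARA-B4 and 81.7 in HARA (-0.14). That is the smallest difference of the 10, it is below the technical SD, and 35.0% of all genes lay lower. SPRY2 and SPRY4 belong to the same family of membrane-bound inhibitors, yet their differences lay 0.65 apart.

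**Figure D2:**
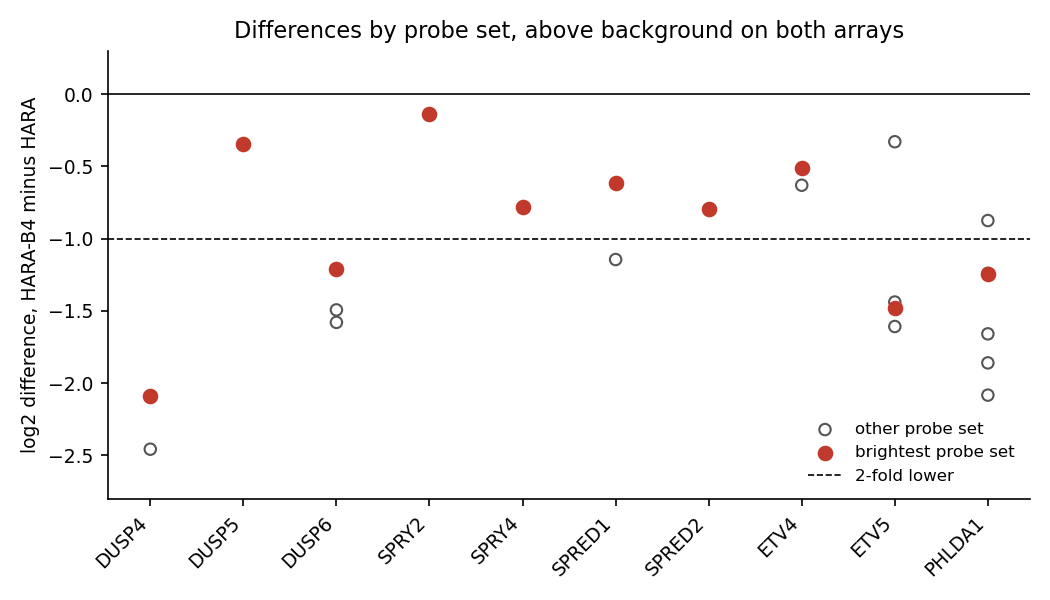
Log2 difference, HARA-B4 minus HARA, of each member probe set above background on both arrays. Filled points are the brightest probe set of a gene, open points its others, and the dashed line marks 2-fold lower. DUSP4 and DUSP6 lie below that line with every probe set, ETV5 and PHLDA1 with all but 1 each, and DUSP5, SPRY2, SPRY4, SPRED2 and ETV4 above it with all of theirs.

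ETV4 and ETV5 are ETS factors of the PEA3 group, which ERK signalling induces and which pass its effect on to further genes. ETV5 read 75.5 in HARA-B4 and 210 in HARA on its brightest probe set, 203349_s_at (-1.48, 35.9% of the HARA signal). A second probe set read 42.9 in HARA-B4 and 131 in HARA (-1.61) and another 33.6 in HARA-B4 and 91.0 in HARA (-1.44). The remaining pair gave less. One of them differed by only -0.33, at 28.9 in HARA-B4 and 36.3 in HARA, close to the background level in both lines, and the other was below background, at 15.0 in HARA-B4 and 14.1 in HARA. With the exception of that pair, the ETV5 probe sets differed from one another by less than the technical SD. ETV4 read 64.2 in HARA-B4 and 91.4 in HARA (-0.51), with a second probe set at 30.4 in HARA-B4 and 47.0 in HARA (-0.63). The ETV4 probe sets were thus lower by at most 1.55-fold, and the difference of ETV5 was 0.97 further down than that of ETV4.

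PHLDA1, a pleckstrin-homology-like protein that growth factors and ERK induce, had 6 probe sets, all above background on both arrays. The brightest, 217996_at, read 840 in HARA-B4 and 1992 in HARA (-1.25). The others differed by -2.08 to -0.88, and the widest was read at 40.4 in HARA-B4 and 171 in HARA. In HARA-B4 the brightest PHLDA1 probe set lay at 30.9 times the background level, so its difference is not set by background. Of the 6, 5 were lower by at least 2-fold and 1, at 89.3 in HARA-B4 and 164 in HARA, was not, and the SD of the differences among them was 0.45.

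**Figure D3:**
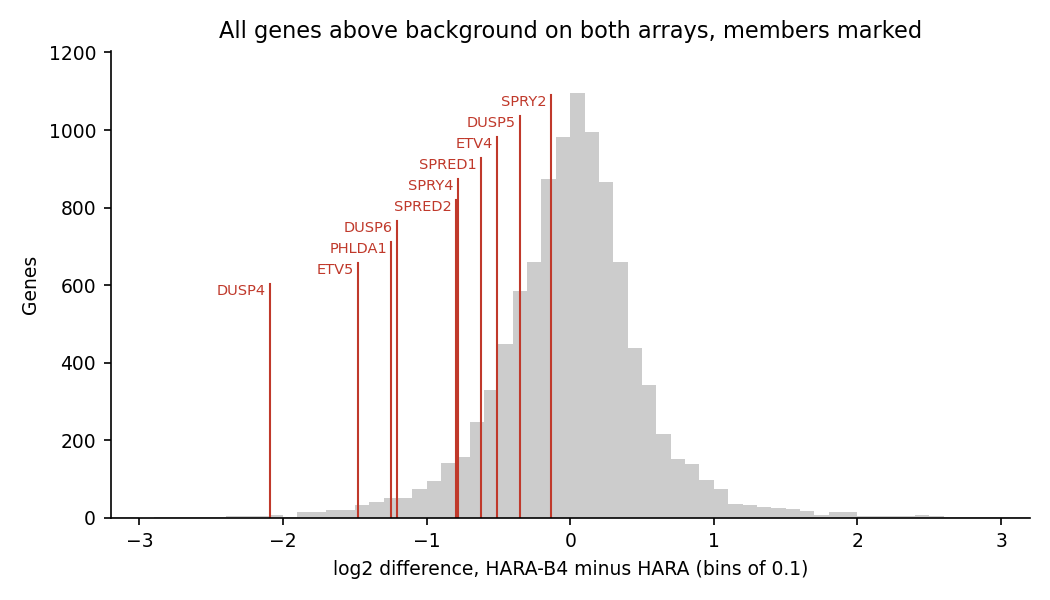
Number of genes above background on both arrays by log2 difference, HARA-B4 minus HARA, in bins of 0.1, with each of the 10 members marked by a red line. All 10 lines lie left of 0, from DUSP4 at -2.09 to SPRY2 at -0.14.

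Ordered by difference, DUSP4 came first, followed by ETV5 (-1.48), PHLDA1 (-1.25), DUSP6 (-1.21), SPRED2 (-0.79), SPRY4 (-0.78), SPRED1 (-0.62), ETV4 (-0.51), DUSP5 (-0.35) and SPRY2 (-0.14). The gap from DUSP4 to ETV5 (0.61) and the gap from DUSP6 to SPRED2 (0.41) were wider than the technical SD of 0.30. All the other neighbours in that order lay closer together than this. That SD is for the difference of a single probe set and holds no variation between arrays or cultures. It therefore settles no part of the order, the wider gaps included. With 1 array for each line no test of any of these gaps can be made.

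Other genes of the pathway, taken from 10 lists of 108 genes, of which 96 were analysed here, gave a different picture from the members. Of the 83 above background on at least 1 array, 4 were lower by at least 2-fold and 2 higher, with a median of 0.03. The members' median was -0.79, and the difference between these medians was not tested.

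Immediate early genes, many of which ERK switches on within minutes through serum response factor and its ETS partners, mostly had positive differences. Of 12 above background, 10 were positive. None was called in either direction (0 of 12), and the median was 0.37. EGR1, a zinc finger factor and a standard marker of ERK activation, read 143 in HARA-B4 and 85.5 in HARA (0.74). The 2 brightest were IER3, an early response gene, at 2267 in HARA-B4 and 1283 in HARA (0.82), and MCL1, an anti-apoptotic BCL2 relative, at 1602 in HARA-B4 and 1493 in HARA (0.10). The negative genes were ZFP36 (-0.17) and JUNB (-0.04), and FOS, FOSB and EGR3 were below background in both lines. EGR1, ZFP36, JUNB, FOS, FOSB and EGR3 are named beyond the naming rule, after their values were seen.

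Of 8 further ERK output genes above background, 0 were lower by 2-fold and 1 was higher, with a median of 0.07. The higher one was the ephrin receptor EPHA4, at 55.9 in HARA-B4 and below background in HARA (11.4), at least 2.06-fold higher. That call was lost (0 higher) with the background raised by 1, with the mean of all probe sets, with log2(signal + 16) and at 3-fold. Cyclin D1 (CCND1), which drives entry into the cell cycle, read 1173 in HARA-B4 and 874 in HARA (0.42), and the AP-1 subunit FOSL1 364 in HARA-B4 and 338 in HARA (0.10). Of the 8, 5 were positive and 3 negative, namely EPHA2 (-0.31), SLC20A1 (-0.09) and HMGA2 (-0.07). This split and the median rest on the brightest probe sets, and those of MAFF, PLAUR and HMGA2 went in both directions. The list's median was -0.18 with the mean of all probe sets and -0.01 with the mean of those above background. Apart from EPHA4, these genes were named after their values were seen.

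**Figure D4:**
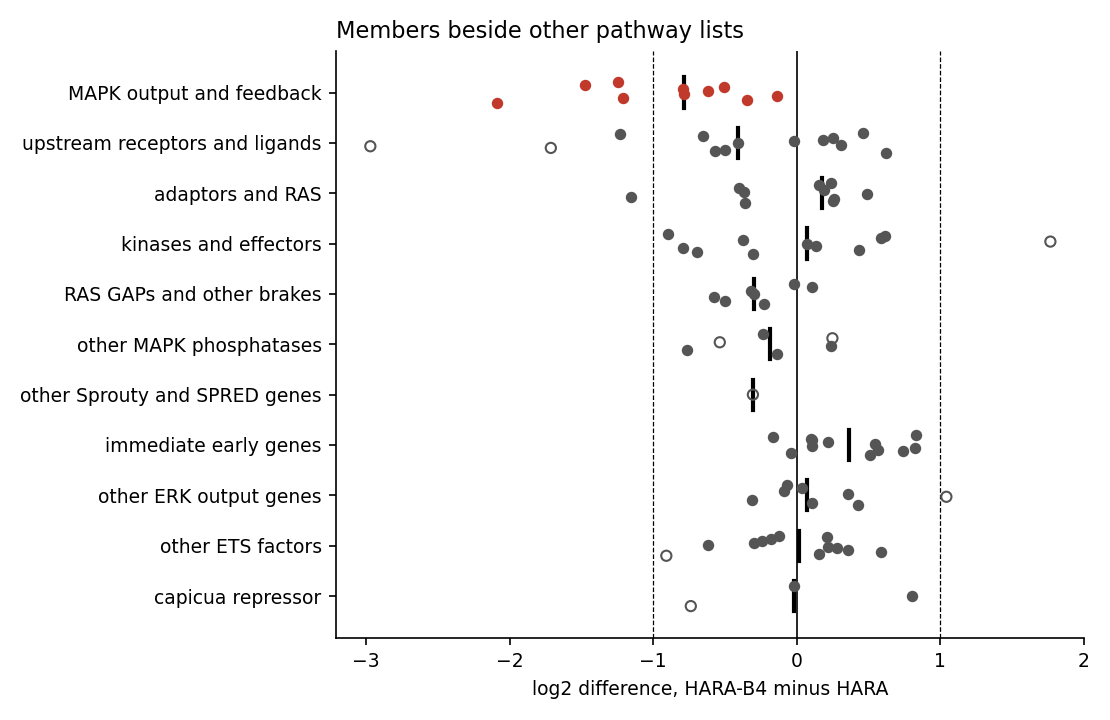
Log2 difference, HARA-B4 minus HARA, of the 10 members (red, top row) and of the genes of 10 other pathway lists (grey) above background on at least 1 array. Open points are bounds for genes at background on 1 array, black bars are medians and dashed lines mark 2-fold. The members' median is -0.79 and that of the immediate early genes 0.37.

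The relatives of the members by function lay between these. Of 6 other MAP kinase phosphatases above background 0 passed 2-fold, with a median of -0.19. Both depend on the choice of probe sets: when all probe sets were averaged, 1 of 2 was lower and the median was -0.87, and with the mean of probe sets above background 1 of 6 was lower and the median was -0.35. DUSP7, like DUSP6 a cytoplasmic phosphatase selective for ERK, differed by -0.76 (402 in HARA-B4 and 684 in HARA), and DUSP1, the stress-inducible nuclear phosphatase, differed by -0.14 (136 in HARA-B4 and 149 in HARA). Of the other Sprouty and SPRED genes only SPRY1 passed background, in HARA alone, with signals of 22.1 in HARA-B4 and 33.6 in HARA. Of 7 other brakes on the pathway 0 passed 2-fold, 6 were negative and the median was -0.30. Among all genes above background on both arrays, 47.8% were negative. The brightest by mean log2 signal were the RAF inhibitor PEBP1, at 1692 in HARA-B4 and 2518 in HARA (-0.57), and the EGFR feedback inhibitor ERRFI1, at 282 in HARA-B4 and 351 in HARA (-0.32). The ubiquitin ligase CBL, named after its value was seen, was nearly as bright by that mean, at 311 in HARA-B4 and 314 in HARA (-0.02). Probe sets of CBL, RASA2 and RASAL2 went in both directions. With the mean of probe sets above background, the median of the 7 brakes was -0.13.

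Of 12 other ETS factors above background 0 passed 2-fold and 6 were negative, with a median of 0.01. ELK3 read 687 in HARA-B4 and 1055 in HARA (-0.62), and ELK4 513 in HARA-B4 and 631 in HARA (-0.30). Both are partners of serum response factor. The other ELK3 probe set above background differed by -0.08, and the 4 of ELK4 ran from -0.30 to 0.30. With the background lowered by 1 or set at the 90th percentile, 1 gene of this list was lower by 2-fold. ETV1, the remaining PEA3 group member, was below background in HARA-B4 (8.04) and at 51.0 in HARA, at least 1.88-fold lower, and is named after its value was seen. Of the 3 genes of the capicua repressor complex 0 passed 2-fold. CIC itself, the repressor, read 26.8 in HARA-B4, just under background, and 45.3 in HARA, at least 1.67-fold lower, and is named after its value was seen. Its binding partners ATXN1, at 115 in HARA-B4 and 65.9 in HARA, and ATXN1L, at 566 in HARA-B4 and 574 in HARA, differed by 0.81 and -0.02.

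Upstream of the cascade, 3 of 13 receptors and ligands were lower by at least 2-fold and 0 higher, with a median of -0.41. The EGFR ligand epiregulin (EREG) was below background in HARA-B4 (3.66) and at 213 in HARA, at least 7.84-fold lower. The receptor ERBB4 was also below background in HARA-B4 (14.1) and at 89.1 in HARA, at least 3.28-fold lower, and MET, the receptor of hepatocyte growth factor, read 619 in HARA-B4 and 1457 in HARA (-1.24). The 4 MET probe sets above background ran from -1.64 to -0.73, so not all of them passed 2-fold. The list's count of 3 was 1 with the mean of all probe sets and 1 when all probe sets of a gene had to pass. The receptor EGFR, named after its value was seen, did not share that direction, at 1014 in HARA-B4 and 660 in HARA (0.62).

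Within the cascade, few genes passed 2-fold. Of 10 adaptor and RAS genes the exchange factor SOS2 was lower, at 126 in HARA-B4 and 281 in HARA (-1.16), and the median was 0.17. A second SOS2 probe set differed by only -0.71, and the call was lost (0 of the list lower) with the mean of all probe sets, at 3-fold and when all probe sets had to pass. Of 11 kinases and effectors the ribosomal S6 kinase gene RPS6KA2 was higher, at 92.4 in HARA-B4 and below background in HARA (24.3), at least 3.40-fold, although another probe set of it differed by -0.06. That call too was lost (0 higher) with a raised background, with either mean of probe sets and when all probe sets had to pass. The median of that list was 0.07. MAP2K1, which encodes MEK1, read 710 in HARA-B4 and 527 in HARA (0.43), MAP2K2, which encodes MEK2, 194 in HARA-B4 and 337 in HARA (-0.79), and MAPK3, which encodes ERK1, 173 in HARA-B4 and 158 in HARA (0.13). These 3 kinases were named after their values were seen. The arrays measure transcripts only, so the phosphorylation of ERK was not measured.

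For their place in the genome, each member was set beside the 12 genes on either side of it in RefSeq order that were above background on both arrays. The 10 members lie on 9 chromosomes, with DUSP6 and PHLDA1 both on chromosome 12. The medians of the neighbours ran from -0.25 at ETV5 to 0.22 at DUSP5, 3 of 10 were negative, and every member lay below the median of its own neighbours, by 0.19 for SPRY2 up to 2.22 for DUSP4. DUSP4 stood beside KIF13B (1.08) and SARAF (0.21), both with positive differences. At DUSP6 16 of 24 neighbours were negative, the median was -0.18, and the adjacent KITLG, the ligand of the KIT receptor, was itself at -1.35. At ETV5 19 of 24 neighbours were negative, while the neighbours of PHLDA1 had a median of 0.07. Whether the neighbourhood had a part in the values of ETV5 and DUSP6 was not tested.

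**Figure D5:**
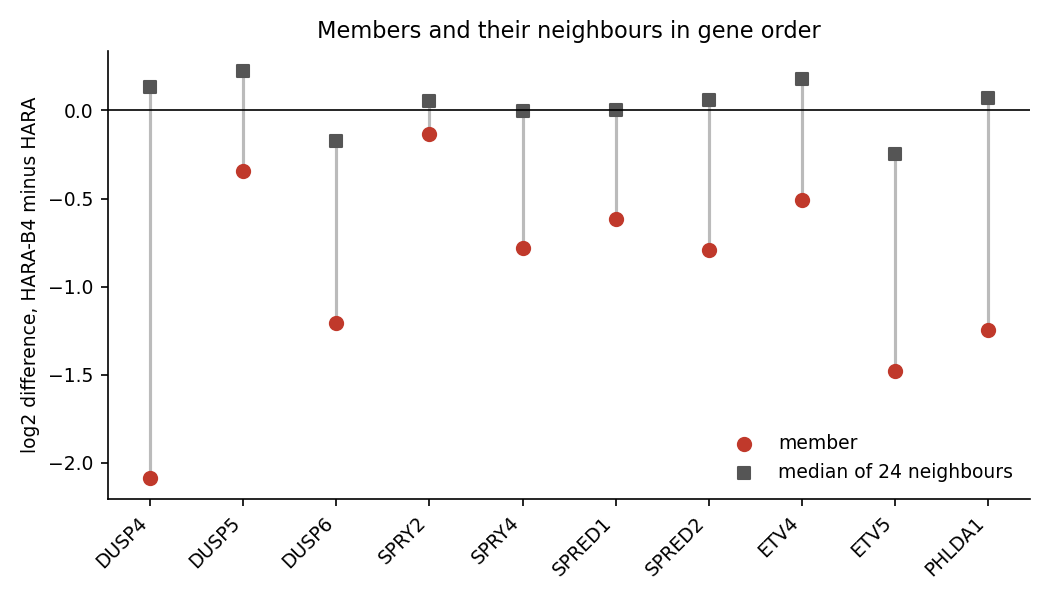
Log2 difference, HARA-B4 minus HARA, of each member (red circles) and the median of its 24 neighbours in gene order (grey squares). Each member lies below the median of its neighbours, from a gap of 0.19 for SPRY2 to 2.22 for DUSP4.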

How the data were processed

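Total RNA of HARA-B4 and of HARA was measured on 1 Affymetrix array each. The deposited values are linear intensities, 1 per probe set, made by the authors with Affymetrix Expression Console, per the submitters' processing notes. Its version, algorithm and scaling were not given in the sources used here. No further scaling was applied before log2 values were taken, without a pseudocount. Of 54675 probe sets, 41097 had 1 gene symbol, 1801 several and 11777 none, and 41043 of those with 1 symbol were matched by Entrez ID to RefSeq symbols (GRCh38.p14). Background was the 95th percentile of 163 receptor probe sets. Where a gene passed background in 1 line, its other value was raised to the background level, so that fold is a bound. Calls needed 2-fold. With 1 array for each line no test was possible, and precision is limited by that number. The members, the lists and the alternatives were chosen with earlier results of these data known. All 10 members are named, and in each list up to 4 called genes or the 2 brightest. The scripts ran in Python 3.11.15 with pandas 2.3.3 and were tested on simulated data.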

Additional observations from a re-analysis of the deposited data

How the results depend on the processing

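The count of 4 members lower by 2-fold was 7 at 1.5-fold, 1 (DUSP4) at 3-fold and 2 (DUSP4 and DUSP6) when all probe sets of a gene above background had to pass. All genes lower numbered 1269 at 1.5-fold and 155 at 3-fold, against 483 at 2-fold, and those higher 1174 and 141, against 416. With the mean of all probe sets 3 members were lower, ETV5 then being at -0.95. Under the other alternatives (subtracting the median difference, quantile normalization, removing a lowess trend, background moved by 1 up or down or set at the 90th percentile, the mean of probe sets above background, leaving out probe sets ending in _x_at or _s_at, and log2(signal + 16)) the count was 4. No member was higher by 2-fold under any of the 13 alternatives. The members' median ran from -0.90 to -0.66, and all 97 member differences recomputed were negative. Of these, 93 moved by less than the technical SD, and the others were ETV5 above and DUSP4 at -2.50, -2.50 and -2.46. SPRY4 left the set with a raised background and without _s_at probe sets, and SPRED2 with the mean of all probe sets. The median of the immediate early genes stayed positive, from 0.18 to 0.53. Of 358 list counts and medians, 326 kept their value within 1.5 times or the technical SD. The other 32 moved, among them the single calls of SOS2, RPS6KA2 and EPHA4. No paired analysis was possible because each line has 1 array. No replicate could be left out for the same reason. In HARA-B4 the signals of SPRY4 and DUSP5 lay at 1.06 and 1.70 times the background level. Those of ETV4, DUSP4, SPRY2 and ETV5 lay at 2.37, 2.63, 2.74 and 2.78 times that level. Such low signals limit the differences that can be measured.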

Other observations

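Gene families of the members, taken by symbol, held genes with differences in the opposite direction. Of 22 DUSP genes measured, 18 were above background, and the 15 that are not members had a median of 0.23, with 8 positive, 2 higher by at least 2-fold and 0 lower. The higher ones were DUSP22, a phosphatase of JNK signalling, at 527 in HARA-B4 and 233 in HARA (1.18), and DUSP14, a small phosphatase, at 967 in HARA-B4 and 460 in HARA (1.07). PHLDA2, an imprinted relative of PHLDA1, read 1759 in HARA-B4 and 788 in HARA, a log2 difference of 1.16 beside -1.25 for PHLDA1. PHLDA3, a p53 target of the same family, differed by -0.04. SPRED3 and SPRY3 were below background in both lines. These values rest on the brightest probe set of each gene and 1 array for each line.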
